A study of Mus musculus with 9 samples.

Results

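The genes described here are 10 mouse genes of triglyceride synthesis and lipid breakdown, followed in aortas of mice with and without Apoe. They were taken by name (Gpam, Agpat2, Agpat3, Lpin1, Dgat1, Dgat2, Pnpla2, Pnpla3, Pnpla8 and Mgll) and found through their Ensembl identifiers in GENCODE mouse release 21. All 10 were among the 33293 identifiers of the deposited table. All 10 were also among the 13383 genes that reached 1 FPKM (a count divided by exon length and library depth) in at least 4 libraries and were tested. The Apoe_KO group had 4 RNA sequencing libraries of aorta from male Apoe-knockout mice aged 7 to 8 weeks and fed normal chow. The WT group had 5 libraries of aorta from male C57BL/6J mice of the same age and diet. The labels do not say how the knockout was made, whether fat around the vessel was removed, or whether each library is a separate animal. P-values therefore measure the spread between these samples, which may be technical.

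Triglyceride is built on a glycerol phosphate backbone by acyltransferases. A first acyl chain is added by enzymes such as GPAM and a second by the AGPAT family, which gives phosphatidic acid. Lipins remove the phosphate to leave diacylglycerol, and the DGAT enzymes add the last chain. Lipases then release the fatty acids again. PNPLA2, also called ATGL, acts on triglyceride, and MGLL on monoacylglycerol. In the aorta these genes are best known from the adipocytes of the fat that surrounds the vessel. ApoE, the product of Apoe, is the protein by which receptors recognise lipoprotein remnants and take them out of the blood.

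The promoters of the called genes Pnpla3 and Agpat2 are shown with that of Pnpla2, a relative of Pnpla3 that was not called, so that their motifs can be set side by side. They are RefSeq sequences on GRCm38.p6, from 250 bases before to 50 bases after the start of transcription, written 5′ to 3′ on the strand of the gene. Capitals mark each GC box (GGGCGG, or CCGCCC for the other strand) and each CCAAT box (CCAAT, or ATTGG for the other strand). No match of one kind overlapped a match of the other kind, but 2 GC boxes of Agpat2 overlap each other by 1 base. Pnpla3 is at chr15:84167566-84167865 on the plus strand, Agpat2 at chr2:26604368-26604667 on the minus strand, and Pnpla2 at chr7:141454938-141455237 on the plus strand.
Pnpla3: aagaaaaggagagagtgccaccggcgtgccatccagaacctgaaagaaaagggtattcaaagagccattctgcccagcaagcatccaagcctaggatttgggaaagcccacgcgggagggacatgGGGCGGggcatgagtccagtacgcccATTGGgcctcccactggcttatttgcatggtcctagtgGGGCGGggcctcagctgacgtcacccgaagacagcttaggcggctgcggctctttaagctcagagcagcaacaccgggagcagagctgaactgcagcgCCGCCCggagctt
Agpat2: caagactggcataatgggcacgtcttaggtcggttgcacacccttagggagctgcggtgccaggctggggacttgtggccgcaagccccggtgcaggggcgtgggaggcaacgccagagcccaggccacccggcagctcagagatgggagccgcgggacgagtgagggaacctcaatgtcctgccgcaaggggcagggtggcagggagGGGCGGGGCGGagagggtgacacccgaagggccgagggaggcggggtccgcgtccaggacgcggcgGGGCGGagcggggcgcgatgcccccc
Pnpla2: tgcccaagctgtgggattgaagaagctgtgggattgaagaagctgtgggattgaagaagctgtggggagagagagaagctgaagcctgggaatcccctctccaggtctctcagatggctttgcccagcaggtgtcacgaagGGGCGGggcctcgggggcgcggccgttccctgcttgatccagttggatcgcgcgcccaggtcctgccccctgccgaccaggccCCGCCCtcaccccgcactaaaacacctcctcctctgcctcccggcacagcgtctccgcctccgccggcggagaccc

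With bases counted from 1 at the start of transcription and negative before it, GC boxes of Pnpla3 begin at -125, -61 and 38, and its CCAAT box begins at -99. Those of Agpat2 begin at -42, -37 and 25, and those of Pnpla2 at -109 and -26. The RefSeq table held 10 promoters of 8 of the genes, of which 7 had a GC box and 2 a CCAAT box. Of all 32851 mouse promoters in the table, 35.7% had a GC box and 37.4% a CCAAT box. The letters TCACNCCAC, a form of the sterol regulatory element that SREBP proteins bind, were searched on both strands. They were in 0 of the 10 promoters and in 1.24% of all promoters. Another search on both strands was for the E box CACGTG, which was in 1 of the 2 Mgll promoters and in 7.15% of all promoters. Such a match or its absence describes these letters in this window only.

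Apoe was at 6.35, 6.35, 5.64 and 6.55 FPKM in Apoe_KO 1 to 4 and at 528, 592, 513, 643 and 536 FPKM in WT 1 to 5. Depths were 17.0 to 19.8 M reads or fragments per library. Apoe_KO 4 and WT 2 stood apart through lymphocyte transcripts. Cd79a, a B cell receptor subunit, was at 65.1 FPKM in Apoe_KO 4 and 0.510 to 0.773 FPKM in the other Apoe_KO libraries, and at 54.2 FPKM in WT 2 and 1.11 to 2.78 FPKM in the other WT libraries. The labelled tissue showed smooth muscle transcripts, with Acta2 at 3749 to 4669 FPKM in Apoe_KO and 3683 to 4412 FPKM in WT. Another smooth muscle marker, Tagln, was only at 6.06 to 10.2 FPKM in Apoe_KO and 7.42 to 9.37 FPKM in WT. Adipocyte transcripts were plain in every library, and Adipoq, which encodes adiponectin, was at 262 to 497 FPKM in Apoe_KO and 360 to 544 FPKM in WT. Summed B and plasma cell markers were 2.15 to 169 FPKM in Apoe_KO and 4.13 to 208 FPKM in WT, and T cell markers 2.03 to 37.2 FPKM in Apoe_KO and 1.84 to 42.9 FPKM in WT. Hepatocyte markers summed to 0.767 to 1.66 FPKM in Apoe_KO and 1.85 to 16.8 FPKM in WT, and skeletal muscle markers to 2.25 to 7.23 FPKM in Apoe_KO and 2.01 to 33.2 FPKM in WT.

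All 10 genes were well measured, with at least 10.1 FPKM and 377 reads in every library. Pnpla2 had the highest level of them in 4 of 4 Apoe_KO libraries and in 4 of 5 WT libraries, where Dgat2 exceeded it in WT 4. Behind these Agpat2 was at rank 3 and Mgll at rank 4 in all 9 libraries, and Pnpla8 was last in all 9. Gpam, Dgat1, Lpin1 and Agpat3 lay between 17.1 and 44.1 FPKM. Neighbours among these 4 genes, in the order named, had overlapping ranges within each group, except Lpin1 and Agpat3 in Apoe_KO (27.4 to 37.7 and 17.1 to 24.7 FPKM). Pnpla3 was 8th or 9th of the 10 in the Apoe_KO libraries and 5th or 7th in the WT libraries.

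In Apoe_KO aorta 2 of the 10 genes were called lower than in WT and 0 higher. The call was limma's adjusted p under 0.05, with Benjamini-Hochberg adjustment over all tested genes. Over all tested genes 524 were called lower (3.92%) and 459 higher (3.43%). With each library centred on its median the split was 269 lower and 630 higher. The genes called lower were Pnpla3 and Agpat2. The fitted log2 fold change was below 0 for 9 of the 10 genes and above 0 for 1, Lpin1, with a median of -0.26 beside -0.069 over all tested genes. Before adjustment 6 of the 10 had a limma p under 0.05. The share of all tested genes with such a p was not counted. It is well above 0.05, since Gpam at a limma p of 0.046 had an adjusted p of only 0.194. The 6 of 10 therefore cannot be set against 0.05. Every Apoe_KO library lay below every WT library for 1 gene, Agpat2, a pattern seen in 7.48% of all tested genes. In bulk tissue, fewer cells of a type and less RNA per cell cannot be told apart.

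**Figure D1:**
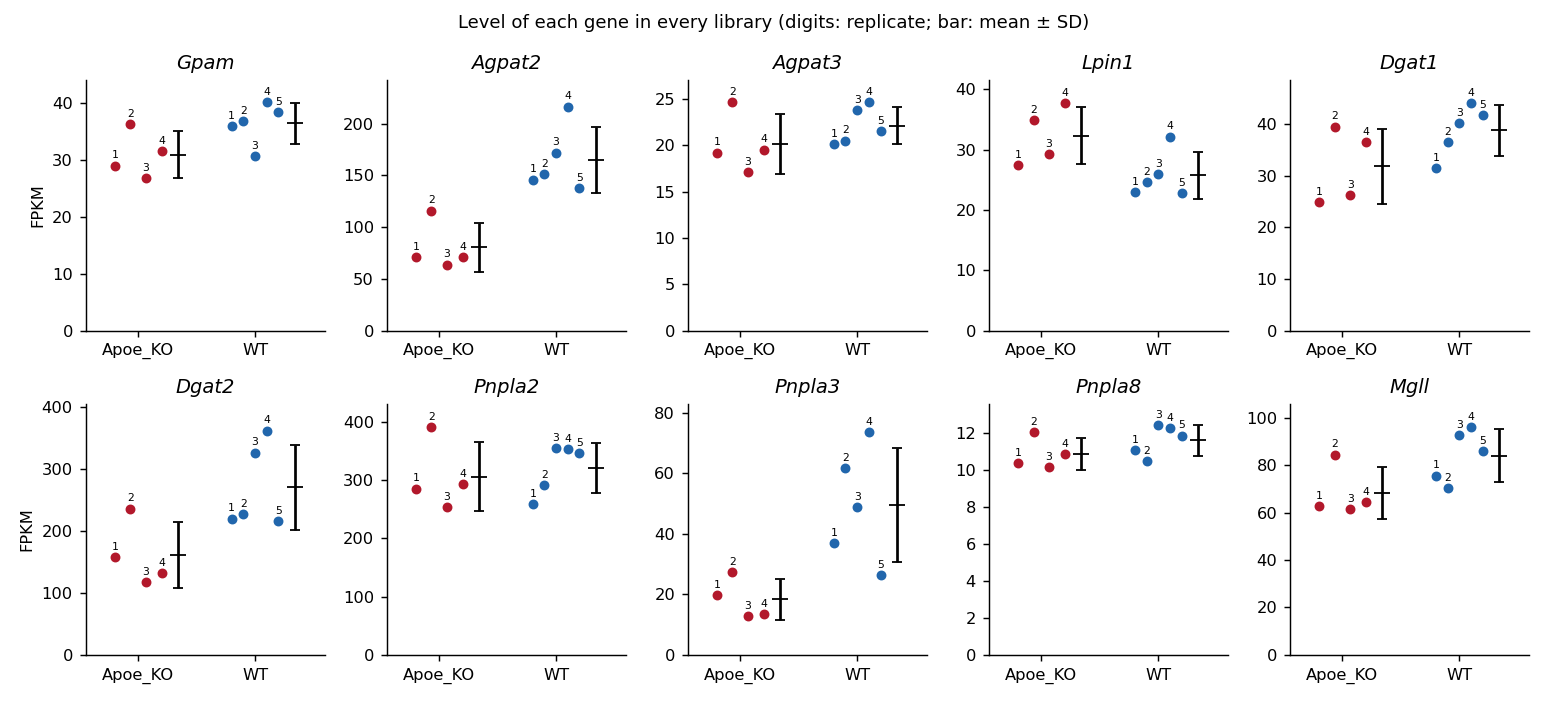
Level of each of the 10 genes in FPKM in every library, with Apoe_KO in red on the left and WT in blue on the right of each panel, replicate numbers above the points, and bars for mean ± SD (n = 4 and n = 5). Agpat2 separates the groups, with Apoe_KO at 63.7 to 116 FPKM and WT at 138 to 216 FPKM, while Apoe_KO 2 is the highest Apoe_KO library for 9 of the 10 genes.

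Gpam, on the minus strand of chromosome 19 (55067268 to 55127238, GRCm38), encodes the mitochondrial acyltransferase that starts glycerolipid synthesis. It was at 29.0, 36.3, 26.8 and 31.6 FPKM in Apoe_KO 1 to 4 and at 36.0, 36.8, 30.7, 40.2 and 38.5 FPKM in WT 1 to 5. The groups overlapped, since Apoe_KO 2 and Apoe_KO 4 lay above WT 3. Gpam was not called, at a log2 fold change of -0.23 (SE 0.10; limma adjusted p = 0.194).

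Agpat2 encodes the acyltransferase of the endoplasmic reticulum that makes phosphatidic acid, and its loss causes congenital lipodystrophy in humans. It lies on the minus strand of chromosome 2 (26593057 to 26604417), with 2130 exonic bases in 7 blocks. It was at 70.7, 116, 63.7 and 71.1 FPKM in Apoe_KO 1 to 4 and at 146, 151, 172, 216 and 138 FPKM in WT 1 to 5. All 4 Apoe_KO libraries were below all 5 WT libraries, and Apoe_KO 2 stood well above the other 3. Mean levels were 80.4 ± 24.0 FPKM in Apoe_KO (SD, n = 4) and 165 ± 31.6 FPKM in WT (SD, n = 5), so the Apoe_KO mean was 48.8% of the WT mean. Agpat2 fell by 1.05 on the log2 scale (SE 0.19; 95% interval -1.46 to -0.63), with a limma adjusted p of 0.0117. It was called in 9 of 9 fits that left out 1 library. Without both Apoe_KO 4 and WT 2 the change was -1.03 and the limma adjusted p was 0.0607, so it was not called there.

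Agpat3 (chromosome 10, 78269178 to 78352489, minus strand), whose product is known mainly for building polyunsaturated phospholipids, did not separate the groups. It was at 19.2, 24.7, 17.1 and 19.5 FPKM in Apoe_KO 1 to 4 and at 20.1, 20.5, 23.8, 24.6 and 21.6 FPKM in WT 1 to 5. Apoe_KO 2 was the highest library of all 9. The log2 fold change was -0.14 (95% interval -0.37 to 0.095; limma adjusted p = 0.452).

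Lpin1 was the 1 gene with a positive fold change. It encodes lipin 1, the phosphatase that makes diacylglycerol and also acts in the nucleus on transcription, and lies on chromosome 12 (16535669 to 16610966, minus strand). Its levels were 27.4, 34.9, 29.3 and 37.7 FPKM in Apoe_KO 1 to 4 and 23.0, 24.6, 26.0, 32.2 and 22.8 FPKM in WT 1 to 5. The groups overlapped only through WT 4, which lay above Apoe_KO 1 and Apoe_KO 3. The log2 fold change was 0.32 (SE 0.12; 95% interval 0.047 to 0.59) with a limma adjusted p of 0.141, so it was not called.

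The DGAT enzymes, unrelated in sequence, both add the last acyl chain. Dgat1 (chromosome 15, 76502015 to 76511953, minus strand) was at 24.9, 39.6, 26.2 and 36.6 FPKM in Apoe_KO 1 to 4 and at 31.5, 36.6, 40.2, 44.1 and 41.7 FPKM in WT 1 to 5. Apoe_KO 2 and Apoe_KO 4 lay within the WT range and the other 2 below it. Its log2 fold change was -0.30 (95% interval -0.63 to 0.040; limma adjusted p = 0.261). Dgat2 (chromosome 7, 99153658 to 99182719, minus strand) was at 158, 236, 118 and 132 FPKM in Apoe_KO 1 to 4 and at 220.1, 228, 327, 362 and 216 FPKM in WT 1 to 5. Only Apoe_KO 2 overlapped WT, above WT 1, WT 2 and WT 5. Dgat2 was not called, at a log2 fold change of -0.76 (SE 0.23; 95% interval -1.27 to -0.25; limma adjusted p = 0.0758). Without Apoe_KO 2 it was -0.96 with a limma adjusted p of 0.022. In the other 8 of 9 fits that left out 1 library Dgat2 was not called (limma adjusted p up to 0.194). On the chromosome of Apoe, Dgat2 lies 79.5 Mb and Pnpla2 122 Mb from it.

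Pnpla2 encodes the main triglyceride lipase of adipocytes and lies on chromosome 7 (141455198 to 141460743, plus strand). It was at 286, 392, 254 and 294 FPKM in Apoe_KO 1 to 4 and at 259, 292, 355, 353 and 346 FPKM in WT 1 to 5. The ranges of the groups overlapped almost wholly, and the highest library of all 9 was Apoe_KO 2. Means were 306 ± 59.4 FPKM in Apoe_KO (SD, n = 4) and 321 ± 43.3 FPKM in WT (SD, n = 5). The log2 fold change was -0.076 (95% interval -0.39 to 0.24; limma adjusted p = 0.779), and without Apoe_KO 3 it was 0.0069.

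Pnpla3, whose product sits on lipid droplets and binds the same coactivator as PNPLA2, is a known target of SREBP-1c in mouse liver. It lies on the plus strand of chromosome 15 (84167837 to 84187236), with 1548 exonic bases in 10 blocks. Its levels were 19.8, 27.4, 12.9 and 13.5 FPKM in Apoe_KO 1 to 4 and 36.9, 61.9, 49.0, 73.7 and 26.4 FPKM in WT 1 to 5. The groups touched at a single point, where Apoe_KO 2 was just above WT 5. The Apoe_KO mean of 18.4 ± 6.75 FPKM (SD, n = 4) was 37.1% of the WT mean of 49.6 ± 18.9 FPKM (SD, n = 5). Pnpla3 fell by 1.36 on the log2 scale (SE 0.31; 95% interval -2.06 to -0.65), with a limma adjusted p of 0.0341. It was also the most variable of the 10 genes between libraries, with a coefficient of variation of 36.7% in Apoe_KO and 38.2% in WT. The call held in 2 of 9 fits that left out 1 library, those without Apoe_KO 2 or WT 5. Without Apoe_KO 1, Apoe_KO 3 or Apoe_KO 4 the limma adjusted p was 0.0634, 0.105 and 0.0743. Without WT 1, WT 2, WT 3 or WT 4 it was 0.0519, 0.0711, 0.0558 and 0.0715. The fold change stayed between -1.56 and -1.19 in all 9 of these fits, and it was -1.14 (limma adjusted p = 0.129) without both Apoe_KO 4 and WT 2. Without the FPKM filter, which adds genes to the adjustment, the limma adjusted p of Pnpla3 was 0.0799.

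Pnpla8 (chromosome 12, 44221370 to 44322532, plus strand), a calcium-independent phospholipase of mitochondria and peroxisomes, was the least variable of the 10 genes. It was at 10.4, 12.0, 10.1 and 10.8 FPKM in Apoe_KO 1 to 4 and at 11.0, 10.4, 12.4, 12.2 and 11.8 FPKM in WT 1 to 5. The groups overlapped, and the coefficient of variation was 7.82% in Apoe_KO and 7.12% in WT. Its fitted log2 fold change was -0.087 (95% interval -0.25 to 0.074; limma adjusted p = 0.497).

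Mgll encodes monoacylglycerol lipase, which ends lipolysis and also degrades the endocannabinoid 2-arachidonoylglycerol (chromosome 6, 88724412 to 88828360, plus strand). It was at 62.8, 84.5, 61.5 and 64.5 FPKM in Apoe_KO 1 to 4 and at 75.7, 70.3, 92.7, 96.0 and 85.9 FPKM in WT 1 to 5. Apoe_KO 2 lay within the WT range and the other 3 Apoe_KO libraries below it. Mgll was not called, at a log2 fold change of -0.30 (SE 0.12; limma adjusted p = 0.169). Without Apoe_KO 2 the change was -0.40, at a limma adjusted p of 0.04995. In the other 8 of 9 fits that left out 1 library it was not called (limma adjusted p up to 0.344).

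**Figure D2:**
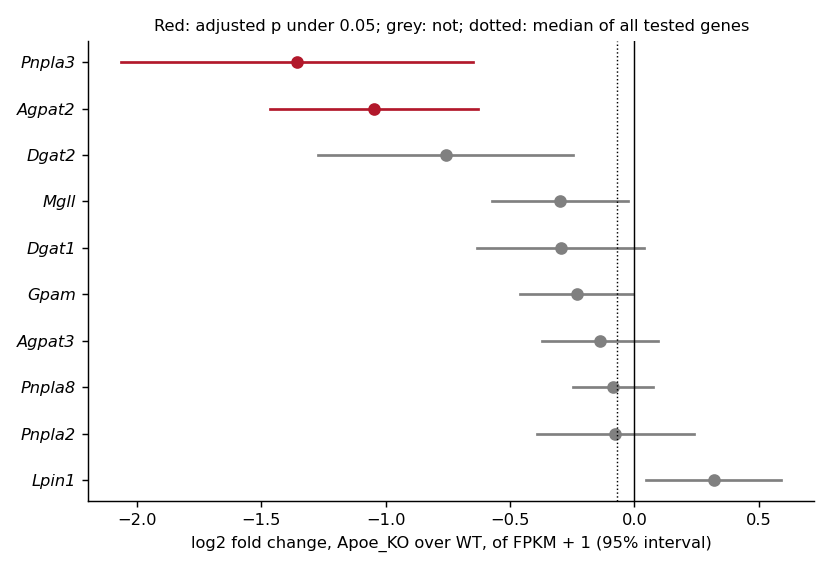
Log2 fold change of FPKM + 1, Apoe_KO over WT, on the x axis for each of the 10 genes, with 95% intervals from limma. Red marks the 2 genes with an adjusted p under 0.05, Pnpla3 at -1.36 and Agpat2 at -1.05, grey the other 8, and the dotted line the median of all tested genes at -0.069.

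Single libraries moved many of these genes together. Apoe_KO 2 was the highest Apoe_KO library for 9 of the 10 genes and Apoe_KO 4 for 1, Lpin1. Apoe_KO 3 was the lowest for 8 of them and Apoe_KO 1 for 2. Among the WT libraries WT 4 was the highest for 8 and WT 3 for 2. Apoe_KO 2 was also the Apoe_KO library with the highest Adipoq (497 FPKM) and the highest Ucp1, the brown adipocyte uncoupling protein (459 FPKM). WT 4 was the WT library with the highest Adipoq (544 FPKM), but Ucp1 was at 247 FPKM there and highest in WT 3 (456 FPKM). Among the Apoe_KO libraries Ucp1 was lowest in Apoe_KO 3 (146.5 FPKM). Adipoq was lowest in Apoe_KO 1 (262 FPKM), with 297.5 FPKM in Apoe_KO 3.

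The level of a gene relative to its relative in the same library was compared next, in 3 pairs of enzymes of like function that were chosen after their values were seen. The ratio of Pnpla3 to Pnpla2 in FPKM was 0.0693, 0.0699, 0.0509 and 0.046 in Apoe_KO 1 to 4 and 0.142, 0.212, 0.138, 0.209 and 0.0762 in WT 1 to 5. Every Apoe_KO ratio was below every WT ratio, WT 5 being the closest. The ratio of Agpat2 to Agpat3 was 3.68, 4.70, 3.73 and 3.64 in Apoe_KO 1 to 4 and 7.26, 7.38, 7.23, 8.78 and 6.38 in WT 1 to 5. Here too the groups did not overlap. The ratio of Dgat2 to Dgat1 was 6.35, 5.97, 4.51 and 3.61 in Apoe_KO 1 to 4 and 7.00, 6.22, 8.12, 8.23 and 5.17 in WT 1 to 5, and the groups overlapped.

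As differences of log2(FPKM + 1) within a library, Pnpla3 minus Pnpla2 averaged -4.03 ± 0.29 in Apoe_KO (SD, n = 4) and -2.75 ± 0.59 in WT (SD, n = 5). Agpat2 minus Agpat3 averaged 1.92 ± 0.18 in Apoe_KO and 2.83 ± 0.17 in WT. For Dgat2 minus Dgat1 the averages were 2.28 ± 0.37 in Apoe_KO and 2.74 ± 0.28 in WT. The first 2 pairs set a gene that was called against one that was not, so these values describe the calls given above and carry no test.

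**Figure D3:**
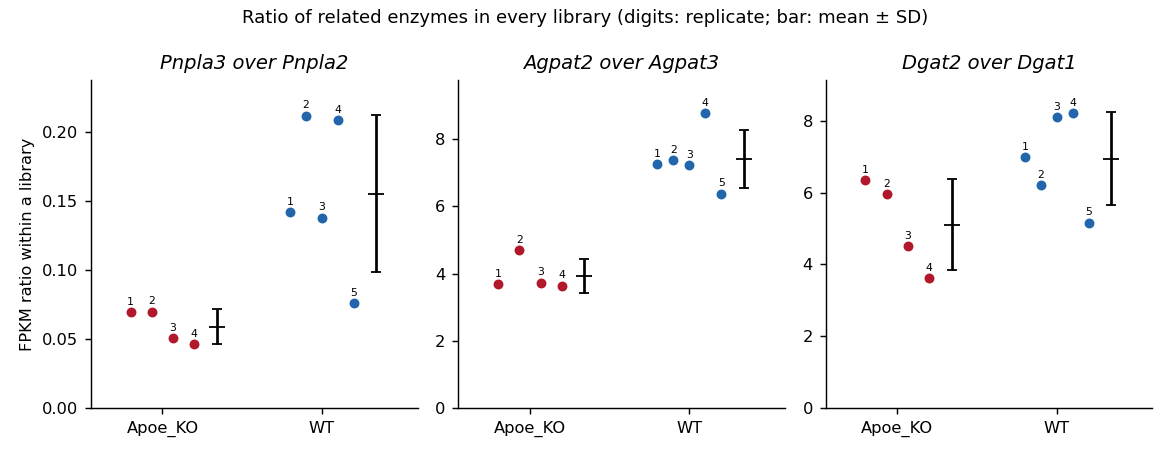
FPKM ratio of each pair of related enzymes within every library on the y axis, Apoe_KO in red on the left and WT in blue on the right, with replicate numbers and mean ± SD. The Pnpla3 to Pnpla2 ratio is at most 0.0699 in Apoe_KO and at least 0.0762 in WT, the Agpat2 to Agpat3 ratio at most 4.70 in Apoe_KO and at least 6.38 in WT, and the Dgat2 to Dgat1 ratios overlap.

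Exon overlaps could mix reads of neighbouring genes, and the sources do not say whether strand was used in counting. Gm49513, on the strand of Pnpla3, shares 105 exonic bases with it, 6.78% of the Pnpla3 exons. Gm49513 was at 0 in all 4 Apoe_KO libraries and at 1.00, 0.776, 0.350, 0.863 and 0 FPKM in WT 1 to 5, which is at most 6 reads, beside at least 377 reads for Pnpla3. Mir6392, a microRNA gene of 108 bases in an intron of Pnpla3 (chromosome 15, 84168270 to 84168377), was at 0.474, 6.48, 2.46 and 1.51 FPKM in Apoe_KO 1 to 4 and at 11.2, 9.80, 11.3, 19.4 and 7.46 FPKM in WT 1 to 5. These values stand for 1 to 13 reads in Apoe_KO and 15 to 40 reads in WT, and reads of unspliced Pnpla3 RNA cannot be told apart from it. Gm20369, a processed pseudogene on the opposite strand within an intron of Pnpla3, was at 0, 0, 0 and 0.355 FPKM in Apoe_KO 1 to 4 and at 1.48, 1.72, 2.59, 2.38 and 0.700 FPKM in WT 1 to 5. Gm20369 had 0 to 2 reads in Apoe_KO and 4 to 15 reads in WT, and it reached 1 FPKM in WT libraries only. Neither of these intronic genes shares an exonic base with Pnpla3, and both averaged lower in Apoe_KO. Since use of strand is not given, unspliced Pnpla3 RNA may also be counted for Gm20369. The 2 genes are therefore no independent measure beside Pnpla3.

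Agpat2 shares 64 exonic bases, 3.0% of its exons, with Egfl7, which encodes a secreted endothelial protein and runs on the opposite strand. Egfl7 was at 12.0, 12.6, 13.3 and 17.2 FPKM in Apoe_KO 1 to 4 and at 15.5, 19.6, 19.4, 18.0 and 20.7 FPKM in WT 1 to 5. Its groups overlapped at Apoe_KO 4 and WT 1, and the log2 fold change was -0.42 (limma adjusted p = 0.0527). Without Apoe_KO 4 it was -0.52 (limma adjusted p = 0.0197) and without WT 1 it was -0.48 (0.0396). In the other 7 of 9 fits that left out 1 library Egfl7 was not called (limma adjusted p of 0.0893 to 0.131). Agpat3, Pnpla8 and Mgll share 16, 91 and 167 exonic bases with Gm40709, Gm47096 and Gm26588. These 3 genes averaged 0.0352, 0.223 and 0.272 FPKM in Apoe_KO and 0.0385, 0.159 and 0.235 FPKM in WT, far below the genes they overlap. The other 5 of the 10 genes share no exonic base with another gene.

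White adipocyte markers were set against the same comparison, with no test of their part in the result. Of 13 white adipocyte markers, 3 were called lower in Apoe_KO and 0 higher, beside 3.92% lower and 3.43% higher over all tested genes. The markers had 12 fold changes below 0 and a median log2 fold change of -0.50, beside -0.069 over all tested genes. Their summed level was 3498 to 6389 FPKM in Apoe_KO and 5425 to 8250 FPKM in WT, and none of the 13 was at 0 in any library. The 3 were Adrb3, the beta-3 adrenergic receptor (-0.86, limma adjusted p = 0.00587), Lep, which encodes leptin (-1.74, 0.0276), and Plin1, a coat protein of lipid droplets (-0.56, 0.0466). Lep was at 1.37, 5.43, 3.59 and 8.51 FPKM in Apoe_KO 1 to 4 and at 15.2, 21.7, 17.3, 19.5 and 9.07 FPKM in WT 1 to 5. Its groups did not overlap, and its limma adjusted p was 0.0851 without Apoe_KO 3 and 0.0563, 0.0592 and 0.0698 without WT 1, WT 2 and WT 4. Plin1 was at 84.1, 116, 75.1 and 97.2 FPKM in Apoe_KO 1 to 4 and at 122, 118, 151, 169 and 126 FPKM in WT 1 to 5. The groups of Plin1 did not overlap, but its call was lost in 8 of 9 fits that left out 1 library (limma adjusted p of 0.0582 to 0.128), all but the one without Apoe_KO 2. The list had 1 to 6 genes called lower in the fits that left out 1 library, with 6 without Apoe_KO 2 and 1 without Apoe_KO 3, WT 1, WT 2 or WT 4. It had 1 without the FPKM filter, 6 with library weights and 2 with median centring, which lost Plin1 (limma adjusted p = 0.102).

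Markers of other cells were compared as well, and their part in the result was not tested. Over all tested genes 3.92% were called lower and 3.43% higher, with a median log2 fold change of -0.069. The summed levels of each list below overlapped between the groups. Endothelial markers had 6 of 6 fold changes below 0 in Apoe_KO, with a median log2 fold change of -0.33, and 1 of 6 was called lower, Kdr. They summed to 178 to 295 FPKM in Apoe_KO and 191 to 321 FPKM in WT. Macrophage markers had 0 of 6 fold changes below 0, with a median of 0.20, and 1 of 6 was called higher, Lyve1. They summed to 167 to 252 FPKM in Apoe_KO and 129 to 177 FPKM in WT. Of the smooth muscle markers 1 of 8 had a fold change below 0, with a median of 0.20, and 1 of 8 was called higher, Des. They summed to 4894 to 6195 FPKM in Apoe_KO and 4775 to 5676 FPKM in WT. Brown adipocyte markers had 8 of 10 fold changes below 0, with a median of -0.16 and 0 of 10 called. Summed brown adipocyte markers ranged from 460 to 1135 FPKM in Apoe_KO and from 542 to 1113 FPKM in WT. Fibroblast markers summed to 782 to 948 FPKM in Apoe_KO and 673 to 826 FPKM in WT, with 2 of 5 fold changes below 0, a median of 0.086 and 0 of 5 called. The 3 genes named here were chosen after their values were seen.

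Set against Adipoq in the same library, Agpat2 separated the groups. The FPKM ratio of Agpat2 to Adipoq was 0.270, 0.233, 0.214 and 0.186 in Apoe_KO 1 to 4 and 0.406, 0.374, 0.353, 0.398 and 0.341 in WT 1 to 5. All Apoe_KO ratios were below all WT ratios, as they also were against Plin1 (0.732 to 1.00 in Apoe_KO, 1.09 to 1.29 in WT) and against Fabp4, a fatty acid carrier of adipocytes (0.133 to 0.164 in Apoe_KO, 0.202 to 0.279 in WT). The ratio of Pnpla3 to Adipoq was 0.0756, 0.0551, 0.0435 and 0.0354 in Apoe_KO 1 to 4 and 0.103, 0.153, 0.101, 0.136 and 0.0654 in WT 1 to 5. These groups overlapped through Apoe_KO 1 and WT 5. The ratio of Lpin1 to Adipoq did not overlap in the other direction, at 0.105, 0.0703, 0.0983 and 0.0988 in Apoe_KO 1 to 4 and 0.0639, 0.0609, 0.0534, 0.0591 and 0.0564 in WT 1 to 5. Against Plin1 and Fabp4 the Lpin1 ratios did not overlap either, at 0.302 to 0.389 in Apoe_KO and 0.172 to 0.209 in WT against Plin1, and 0.0494 to 0.0706 in Apoe_KO and 0.0326 to 0.0439 in WT against Fabp4. The ratio of Pnpla2 to Adipoq overlapped, at 0.770 to 1.09 in Apoe_KO and 0.650 to 0.858 in WT. Against the other markers Pnpla2 was higher in Apoe_KO without overlap, at 3.02 to 3.39 in Apoe_KO and 2.09 to 2.74 in WT against Plin1, and 0.550 to 0.644 in Apoe_KO and 0.433 to 0.510 in WT against Fabp4. Plin1 was itself called lower (log2 fold change -0.56), which raises the ratio to it of any gene that fell less. Against Plin1 3 more genes were higher in Apoe_KO without overlap. These ratios were 0.315 to 0.357 in Apoe_KO and 0.204 to 0.313 in WT for Gpam, 0.201 to 0.229 in Apoe_KO and 0.146 to 0.174 in WT for Agpat3, and 0.104 to 0.135 in Apoe_KO and 0.0724 to 0.0937 in WT for Pnpla8. Ratios to the other white adipocyte markers were not taken. Log2 fold changes in that list ran from -1.74 for Lep to 0.028 for Pparg, with -0.32 for Adipoq and -0.36 for Fabp4. How Agpat2 stands to adipocyte transcripts in general is therefore not shown. All ratios to adipocyte transcripts were chosen after their values were seen and carry no test. The share of all tested genes whose ratios to these transcripts do not overlap was not counted.

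With the mean of the white adipocyte markers as a covariate in limma, 0 of the 10 genes were called. Agpat2 was then at -0.48 (limma adjusted p = 0.198) and Pnpla3 at -0.73 (limma adjusted p = 0.409). Over all tested genes that fit called 14 lower and 21 higher. The covariate is partly tied to genotype, since 12 of its 13 markers had a fold change below 0. Adipocyte level and genotype therefore cannot be told apart in this fit.

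**Figure D4:**
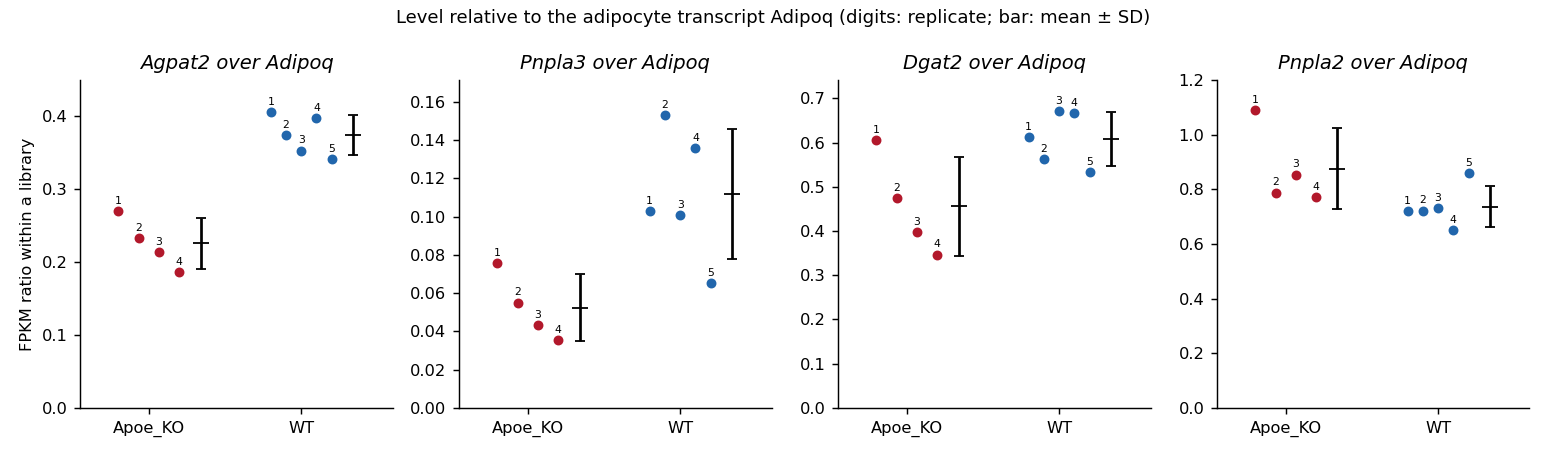
FPKM ratio of Agpat2, Pnpla3, Dgat2 and Pnpla2 to the adipocyte transcript Adipoq within every library on the y axis, Apoe_KO in red on the left and WT in blue on the right, with replicate numbers and mean ± SD. Agpat2 ratios are 0.186 to 0.270 in Apoe_KO and 0.341 to 0.406 in WT without overlap, and the other 3 ratios overlap between the groups.

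Among other genes of triglyceride synthesis, 0 of 15 tested were called in either direction, and 7 of them had a fold change below 0, with a median of 0.047. Gpd1, whose product makes glycerol phosphate in the cytosol, was at 255, 422, 195 and 197 FPKM in Apoe_KO 1 to 4 and at 381, 331, 538, 486 and 356 FPKM in WT 1 to 5. The groups overlapped through Apoe_KO 2, and its log2 fold change was -0.69 (limma adjusted p = 0.110). Bscl2, which encodes the lipid droplet protein seipin, was at 14.0 to 21.9 FPKM in Apoe_KO and 19.8 to 25.1 FPKM in WT, with -0.31 (limma adjusted p = 0.145). Without Apoe_KO 2 both passed, at -0.94 (limma adjusted p = 0.0160) and -0.43 (0.0271), and they were the 2 genes of the list called lower there. Neither was called in the other 8 of 9 fits that left out 1 library (limma adjusted p up to 0.263 for Gpd1 and 0.298 for Bscl2). Mogat2 and Fitm1 were below the filter.

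Of the lipase partners and other lipases, 2 of 18 tested were called lower and 1 higher, beside 3.92% lower and 3.43% higher over all tested genes. Their median log2 fold change was -0.17, beside -0.069 over all tested genes. Plin1 is given above. G0s2 encodes an inhibitor of PNPLA2, and its level was 42.9, 56.6, 38.7 and 54.2 FPKM in Apoe_KO 1 to 4 and 64.9, 96.9, 116, 91.1 and 58.5 FPKM in WT 1 to 5. The groups of G0s2 did not overlap, and it fell by 0.79 on the log2 scale (limma adjusted p = 0.0481). Hilpda, a second inhibitor of PNPLA2, was at 4.18, 5.13, 4.96 and 6.12 FPKM in Apoe_KO 1 to 4 and at 3.03, 4.37, 3.37, 3.13 and 3.31 FPKM in WT 1 to 5. It rose by 0.46 on the log2 scale (limma adjusted p = 0.0409), with overlap through WT 2, which was above Apoe_KO 1. Both calls were lost in 7 of 9 fits that left out 1 library, with limma adjusted p of 0.0511 to 0.138 for G0s2 (all but those without Apoe_KO 2 or WT 5) and 0.0642 to 0.101 for Hilpda (all but those without Apoe_KO 1 or WT 2). With each library centred on its median 0 genes of the list were called lower (limma adjusted p = 0.0751 for G0s2 and 0.102 for Plin1), and likewise 0 without the FPKM filter or with the adipocyte covariate. Hilpda was not called without the FPKM filter (limma adjusted p = 0.104), with the covariate (0.183) or by voom on recovered reads (0.0704). Cideb and Faah were below the filter. The coactivator of PNPLA2, Abhd5, was at 10.9 to 17.2 FPKM in Apoe_KO and 11.0 to 14.7 FPKM in WT (0.12, limma adjusted p = 0.592), named beside its inhibitors after its values were seen.

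Of the other patatin-domain genes, Pnpla6 and Pnpla7, phospholipases of the endoplasmic reticulum, were tested and 0 of the 2 were called. Pnpla6 was at 4.09, 3.33, 3.41 and 2.92 FPKM in Apoe_KO 1 to 4 and at 4.29, 4.20, 3.54, 4.14 and 4.32 FPKM in WT 1 to 5 (log2 fold change -0.20, limma adjusted p = 0.199). Pnpla7 was at 2.24 to 3.79 FPKM in Apoe_KO and 2.43 to 3.56 FPKM in WT (0.059, limma adjusted p = 0.813). Pnpla1 and Pnpla5 were below the filter.

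In the branch that leads to phospholipids, 1 of 15 genes was called lower and 1 higher, beside 3.92% lower and 3.43% higher over all tested genes. The median log2 fold change of these 15 was 0.021, beside -0.069 over all tested genes. Pcyt2 encodes the enzyme that sets the rate of phosphatidylethanolamine synthesis from ethanolamine, a path that uses diacylglycerol. It was at 7.48, 7.46, 6.16 and 7.37 FPKM in Apoe_KO 1 to 4 and at 11.6, 13.7, 11.4, 13.9 and 10.9 FPKM in WT 1 to 5. The groups were well apart, and Pcyt2 fell by 0.71 on the log2 scale (limma adjusted p = 0.00263), called in 9 of 9 fits that left out 1 library. Plpp1, a phosphatase of lipid phosphates at the cell surface, was at 35.3, 35.8, 41.3 and 39.1 FPKM in Apoe_KO 1 to 4 and at 31.3, 28.5, 29.5, 31.0 and 32.7 FPKM in WT 1 to 5. Plpp1 rose by 0.30 on the log2 scale without overlap (limma adjusted p = 0.0298), and its call was lost in 6 of 9 fits that left out 1 library, those without Apoe_KO 3, Apoe_KO 4, WT 1, WT 2, WT 3 or WT 4 (0.0559 to 0.0926). Plpp1 was also not called without the FPKM filter (0.0734), and neither gene with the adipocyte covariate (0.104 for Pcyt2 and 0.257 for Plpp1).

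The 14 regulators of lipid synthesis had a median log2 fold change of -0.19, beside -0.069 over all tested genes. Beside 3.92% of all tested genes called lower and 3.43% higher, 0 of the 14 were called higher and 4 lower in Apoe_KO. They were Insig1, which holds SREBP precursors in the endoplasmic reticulum and is itself a known SREBP target, Srebf1, the gene of SREBP-1, Mlx, the partner of the carbohydrate-responsive factor ChREBP, and Cebpa, a factor of adipocyte differentiation. Insig1 was at 19.7, 34.0, 23.5 and 29.1 FPKM in Apoe_KO 1 to 4 and at 50.3, 63.1, 60.5, 85.8 and 46.9 FPKM in WT 1 to 5. Srebf1 was at 18.6, 26.9, 25.9 and 26.4 FPKM in Apoe_KO 1 to 4 and at 35.3, 42.8, 31.7, 41.9 and 35.7 FPKM in WT 1 to 5. Neither gene overlapped between the groups, and they fell by 1.17 and 0.60 on the log2 scale (limma adjusted p = 0.00909 and 0.0217). Srebf1 was not called without Apoe_KO 3 (limma adjusted p = 0.0513) or WT 4 (0.0561), while Insig1 was called in 9 of 9 such fits. Mlx was at 9.24 to 10.8 FPKM in Apoe_KO and 11.7 to 15.9 FPKM in WT (-0.36, limma adjusted p = 0.0342). Cebpa was at 50.5 to 67.3 FPKM in Apoe_KO and 76.9 to 121 FPKM in WT (-0.60, limma adjusted p = 0.0381). Mlx lost its call without Apoe_KO 1, Apoe_KO 3, Apoe_KO 4, WT 1, WT 3 or WT 4 (limma adjusted p of 0.0558 to 0.0896), and Cebpa without Apoe_KO 1, Apoe_KO 3, Apoe_KO 4, WT 3, WT 4 or WT 5 (0.0549 to 0.109). Pparg, the adipocyte nuclear receptor, was at 22.3, 42.0, 29.4 and 27.4 FPKM in Apoe_KO 1 to 4 and at 22.6, 29.9, 33.0, 29.9 and 30.2 FPKM in WT 1 to 5 (0.028, limma adjusted p = 0.935), and was named after its values were seen. The number of regulators called lower was 1 to 4 over the fits that left out 1 library, with 1 without Apoe_KO 3 or WT 4 and 2 without Apoe_KO 4 or WT 3. It was 2 with median centring, which lost Mlx and Cebpa (limma adjusted p = 0.0678 and 0.0824), 1 without the FPKM filter and 0 with the adipocyte covariate, where Insig1 was at -0.55 (limma adjusted p = 0.132).

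**Figure D5:**
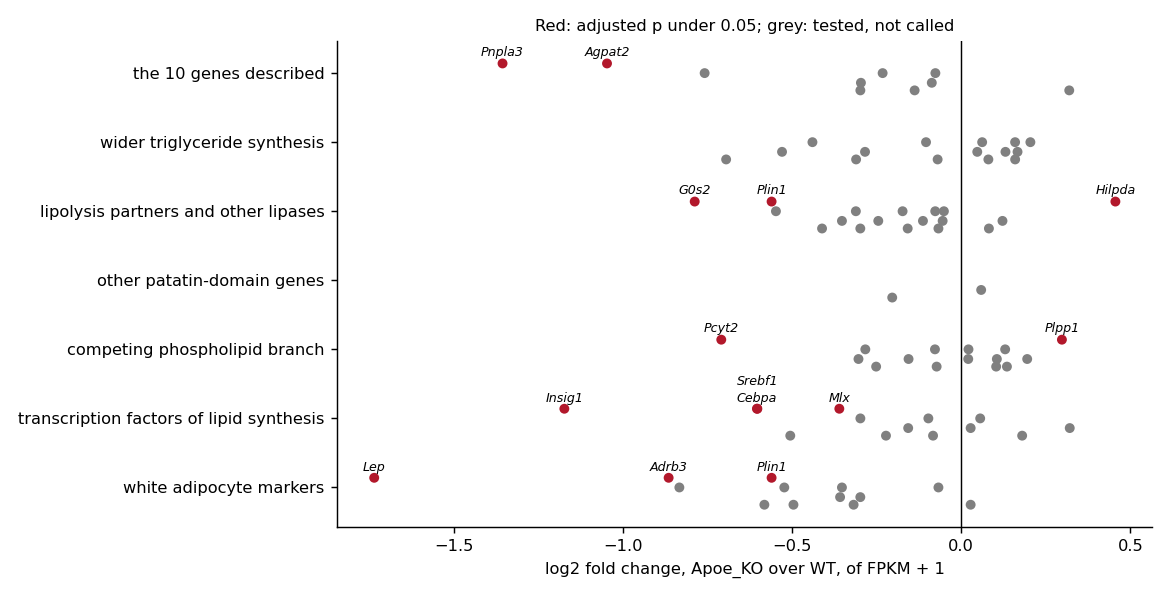
Log2 fold change of FPKM + 1, Apoe_KO over WT, on the x axis, with 1 point per gene in each row. Rows hold every tested gene of the 10 described, of 5 lists of related genes and of the white adipocyte markers. Plin1, Plin4, Cidec and Lipe are drawn with the lipases and again with the white adipocyte markers, and Pparg with the regulators and again with those markers. Srebf1 and Cebpa coincide at -0.60, and height within a row has no meaning. Red points have an adjusted p under 0.05 and are named; among them Hilpda at 0.46 and Plpp1 at 0.30 are above 0 and the rest below.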

How the data were processed

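The authors deposited 1 table of FPKM values, reads per gene scaled by exon length and library depth. The header names no unit, which was taken from the values: each, times the gene's union exon length in GENCODE mouse release 21, gave whole reads at 1 depth per library (within 0.1 read for 97.6% to 97.9% of values of up to 50 reads; 20% by chance). Per the submitters' processing notes, the build was GRCm38 and limma was used. Aligner, counter and use of strand: not given in the sources used here. Per the labels, ribosomal RNA was removed, although their molecule field says polyA RNA. Of the identifiers 53 were not in the annotation, and 0 columns belonged to other samples.

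Levels were tested on log2(FPKM + 1), which understates changes of low genes, with limma 3.58.1 in R 4.3.3 (trend and robust options, genotype only, 9 libraries). The filter was 1 FPKM or more in 4 libraries or more, and p-values were adjusted by Benjamini-Hochberg with a threshold of 0.05. The choice between a count test and limma was open in the design, and limma was taken because the values are not counts. The steps were tested on simulated data. The genes and lists were chosen with earlier results of these data known. Named genes are the 10, those sharing exons with them, Apoe, and from each list up to 4 called by smallest p, or the 2 of smallest p where none was called. For Pnpla3, genes in its introns were added. Alternatives were the replicate block, each library left out, Apoe_KO 4 and WT 2 left out, library weights, median centring, quantile normalization, an adipocyte covariate, voom on recovered reads, a 0.1 pseudocount, and a 10 FPKM filter or none. A read on 2 kb of exon was worth 0.0253 to 0.0294 FPKM.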

Additional observations from a re-analysis of the deposited data

Results flagged for a closer look

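In each group of 4 or 5 libraries the highest and the lowest value of the 10 genes was set against its nearest neighbour, 20 groups in all, and chance alone marks about 1 in 20 groups. In 2 groups the library Apoe_KO 2 lay far above the other Apoe_KO libraries. Agpat2 was at 116 FPKM in Apoe_KO 2 and at 63.7 to 71.1 FPKM in the other 3, a gap of 0.858 of the whole range, above the limit set for 4 libraries. Mgll was at 84.5 FPKM in Apoe_KO 2 and at 61.5 to 64.5 FPKM in the other 3, a gap of 0.873 of the range. Adipoq (497 FPKM) and Ucp1 (459 FPKM) were also highest in Apoe_KO 2 among the Apoe_KO libraries, and their part in these values was not tested.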

How the results depend on the processing

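Of the 10 genes, 0 were called higher under any alternative, while the number called lower (2) was 0 with the replicate block, 0 without Apoe_KO 4 and WT 2, 0 with the adipocyte covariate, 1 without a filter, 6 with library weights and 1 to 4 over the fits that left out 1 library. The replicate numbers are not paired by the labels or by the data: same-numbered libraries had deviations correlated at 0.259, -0.267, -0.129 and -0.218. The replicate block also left out WT 5, which has no Apoe_KO library of the same number. This fit called 65 of all genes lower and 131 higher, and Agpat2 and Pnpla3 had limma adjusted p of 0.0762 and 0.0618 there. Without WT 5 and with no block their limma adjusted p was 0.0191 and 0.0201. Leaving out 1 library gave 178 to 683 genes lower and 205 to 576 higher. Without Apoe_KO 4 and WT 2 there were 174 lower and 203 higher. Without a filter there were 198 lower and 247 higher, and with a filter of 10 FPKM 220 lower. Median centring gave 269 lower, quantile normalization 240, library weights 1055 lower and 702 higher, and the adipocyte covariate 14 lower and 21 higher. With that covariate the log2 fold changes reversed to 0.157 for Agpat3, 0.170 for Dgat1, 0.290 for Pnpla2, 0.071 for Pnpla8, 0.030 for Mgll, 0.073 for Bscl2 and -0.024 for Pnpla7, none called. Leaving out 1 library moved Pnpla2 between -0.201 and 0.0069 and Pnpla7 between -0.040 and 0.147, with a change of sign without Apoe_KO 3 and Apoe_KO 4, in that order. The causes were not tested. Agpat2 was called in 16 of 19 alternatives and Pnpla3 in 8 of 19. A fit without the shared exons was not run, since the table gives 1 value per gene. The 10 genes had 377 to 21951 reads per library.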
